A study of Mus musculus with 13 samples.

Results

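The Notch pathway was followed through 10 genes in TSG101-overexpressing mammary tumors and in wild-type mammary glands. The genes encode the receptors Notch1, Notch2, Notch3 and Notch4, the ligands Jag1, Jag2 and Dll1, and the transcriptional repressors Hes1, Hey1 and Heyl, which are targets of the pathway. They were picked by their symbols as a group of pathway genes, with earlier results of these data known, and all 10 were found among the 15213 genes of the deposited table. Notch receptors are activated by ligands on neighboring cells. An ADAM protease and then gamma-secretase cut the bound receptor, and the released intracellular domain joins the DNA-binding protein RBPJ and Mastermind coactivators to switch on genes of the Hes and Hey families. In the mammary gland, Notch signaling is known for its role in the choice of the luminal over the basal lineage, and Notch4 and Dll4 are also genes of the endothelium.

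Total RNA was sequenced from 10 tumors that arose in 6 MMTV-tTA TetO-Tsg101 females (labelled MtTA Teto-TSG101wt) and from the mammary glands of 3 wild-type females of the FVB strain. According to the paper, the transgenic females were of the FVB/N background as well. The TetO-Tsg101 transgene was that of founder line 1 and was switched on by a separate transgene, in which the Mouse Mammary Tumor Virus promoter drives the tetracycline-controlled transactivator. In animals without TetO-Tsg101, this promoter was active in only some of the luminal cells. Tumors 2 and 3 shared a mouse, as did tumors 5 and 6 and tumors 8, 9 and 10, so that p-values over the tumors rest on fewer than 10 independent animals. The age of the animals and the reproductive stage of the glands are not given in the sources used here, and the controls carried neither transgene. The milk protein gene Csn2 was at 56894 to 63624 normalized cpm (read counts scaled to the size of the library) in the glands and at 85.1 to 21978 normalized cpm in the tumors. A difference in stage between the groups therefore cannot be told apart from that between tumor and gland.

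The libraries held 6176269 to 16835397 reads in the tumors and 11672487 to 23889042 reads in the glands, and a count of 3 reads amounted to at most 0.683 normalized cpm. The transcript of Tsg101 averaged 66.5 ± 15.5 normalized cpm in the tumors (SD, n = 10), beside 53.2 ± 7.68 in the glands (SD, n = 3; limma adjusted p = 0.296), and reads of the transgene are not separated from those of the endogenous gene. The paper's evidence for overexpression is of another kind, namely immunoblots of the tagged TSG101 protein and imaging of the luciferase reporter in tumors. The 10 luminal epithelial markers, keratin genes among them, summed to 2086 to 3642 normalized cpm in the tumors and to 1905 to 3949 in the glands. Of these markers, Prom1 and Cldn4 were nevertheless significantly higher and Elf5 significantly lower in the tumors. Prom1 passed the filter of 5 normalized cpm only through the tumors, as it was at 1.34 to 2.68 normalized cpm in the glands. The libraries differed by degrees in their base composition, with tumors 1, 5 and 9 and gland 3 at the GC-poor end, a grouping made after the values had been seen. The level of GC-rich relative to GC-poor genes in a library, measured as the log2 difference between the top and the bottom GC quintile and called GC index here, was between -0.86 and -0.34 in these 4 libraries and between -0.13 and 0.60 in the other 9. Several Notch genes are rich in GC (Jag2 61.9%, Notch4 61.2% and Notch3 59.6% of the exon bases), and results that rest on gland 3 are given with and without it.

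The promoter table of RefSeq (build GRCm38.p6) held windows for 7 of the 10 genes, the receptors and ligands, and none for the targets Hes1, Hey1 and Heyl. The 250 bases upstream of the start are shown for Jag1 and Notch4, the members with the largest significant rise and the only significant fall, because these genes moved in opposite directions. A window of Egfl7, a secreted Notch regulator, is shown as an example that holds matching letters, and was chosen for them.
Jag1, minus strand, chr2:137116521-137116770: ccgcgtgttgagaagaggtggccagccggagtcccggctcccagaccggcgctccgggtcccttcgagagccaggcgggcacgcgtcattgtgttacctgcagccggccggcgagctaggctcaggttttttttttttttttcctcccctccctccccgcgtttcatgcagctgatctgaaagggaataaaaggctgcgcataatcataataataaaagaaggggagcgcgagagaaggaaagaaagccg
Notch4, plus strand, chr17:34564045-34564294: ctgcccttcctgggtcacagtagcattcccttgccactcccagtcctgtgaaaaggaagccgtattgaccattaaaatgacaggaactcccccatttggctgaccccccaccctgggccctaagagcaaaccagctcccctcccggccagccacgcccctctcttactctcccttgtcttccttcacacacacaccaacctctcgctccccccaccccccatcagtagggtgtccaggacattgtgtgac
Egfl7, plus strand, chr2:26580833-26581082: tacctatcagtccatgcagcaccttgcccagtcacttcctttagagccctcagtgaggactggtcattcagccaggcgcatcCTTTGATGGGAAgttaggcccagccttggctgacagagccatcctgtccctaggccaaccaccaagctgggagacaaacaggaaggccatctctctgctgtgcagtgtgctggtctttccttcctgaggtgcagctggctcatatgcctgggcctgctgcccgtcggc
Capitals mark letters that match the RBPJ core TGGGAA, the TCF/LEF core CTTTGA or the Hes/Hey E-box CACGTG on either strand. None of the 8 windows of the 7 members held any of these letters. The promoters of the targets Hes1, Hey1 and Heyl could not be searched. Of the 3 windows of Egfl7, the printed one held CTTTGA directly followed by TGGGAA, with no overlap, and the other two held none. Of the other pathway genes searched, Rbpj and Hey2 had windows with TGGGAA and Nrarp a window with CACGTG, while those of Dll4 and Dlk1 held none of the letters. Among 32851 promoter windows of the same length, 21.6% held TGGGAA, 13.8% held CTTTGA and 6.02% held CACGTG, so that such matches are common. A match is a description of the letters only.

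The comparison of tumors with glands asks which parts of the pathway differ between TSG101-induced carcinomas and normal tissue. Expression of the ligand genes Jag1 and Dll1 and of the target genes Hes1 and Hey1 was higher in the tumors, and that of the receptor gene Notch4 was lower. All 10 genes passed the filter on low values, and 5 of them were significantly deregulated, meaning an adjusted p below 0.05 and a change of more than 2-fold. The 5 were not equally stable. Of 27 alternative fits, Dll1 lost significance in 13 and Notch4 in 12, against 3 for Hey1 and 1 each for Jag1 and Hes1. Across all 11795 genes tested, 17.2% were significantly deregulated, 10.2% higher and 6.99% lower. The 10 Notch genes had a median log2 fold change of 0.58, beside 0.01 for all genes tested. In 2 of the 10 genes, Jag1 and Hes1, the tumors and the glands did not overlap, a share close to the 19.2% of all genes tested. Changes are given as log2FC, the log2 fold change on the scale of log2(normalized cpm + 1), which understates the change of low genes. In bulk tissue, fewer cells of a type and less RNA per cell cannot be told apart.

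**Figure D1:**
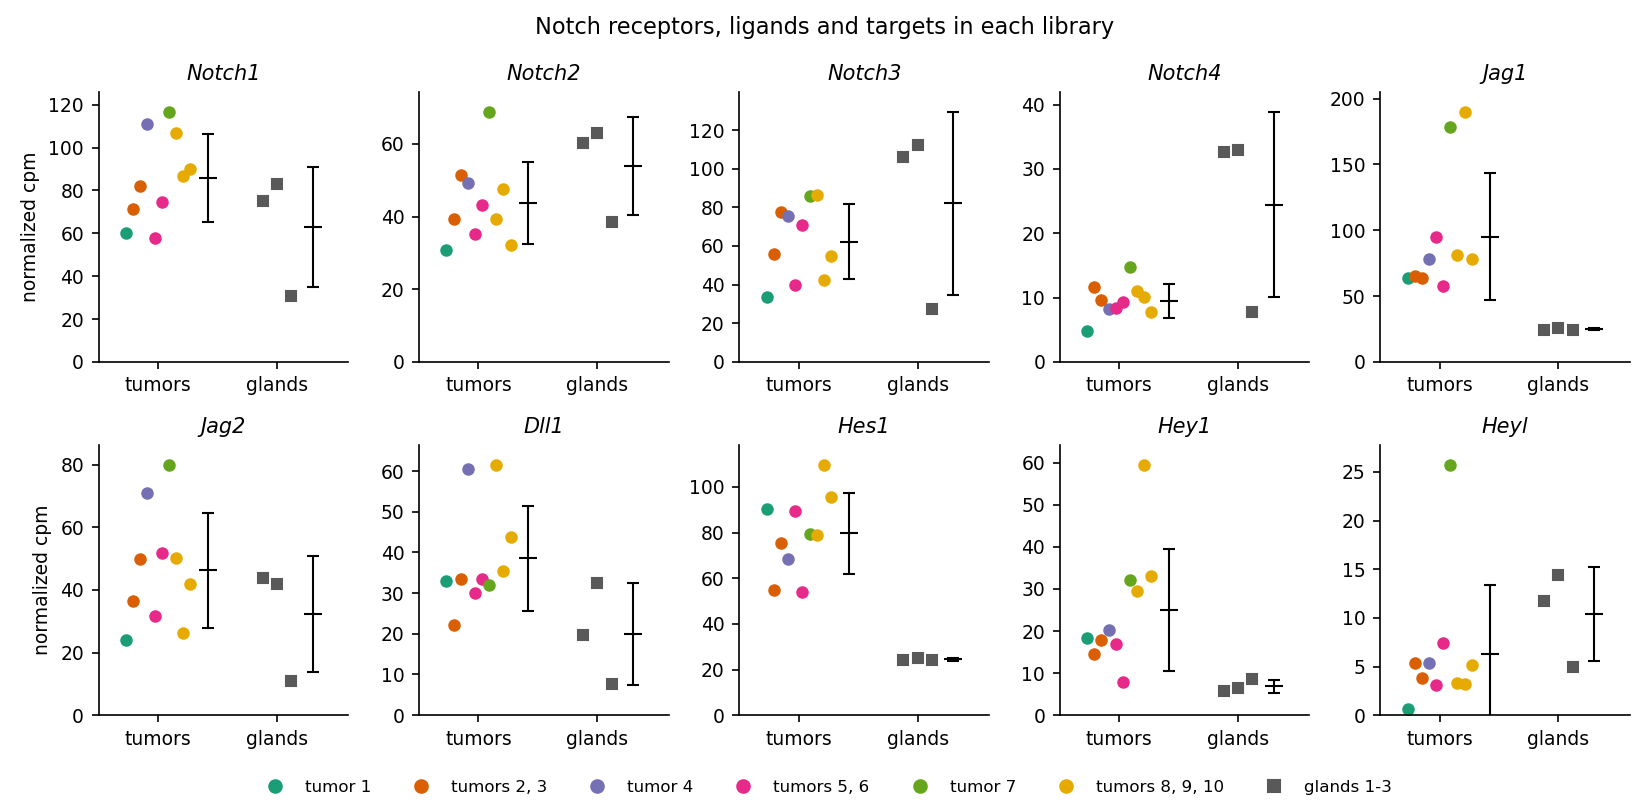
Normalized cpm of the 10 genes in each library, with tumors as circles colored by mouse, glands as squares, and the mean and SD of each group beside the points (the lower bar of Heyl is cut off at 0). All 10 tumors lie above all 3 glands for Jag1 and Hes1, and gland 3 lies below the other glands for each receptor, for Jag2, for Dll1 and for Heyl.

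Among the ligands, Jag1 (Entrez 16449; GRCm38.p6 chromosome 2, 137081451 to 137116520), a transmembrane ligand of the Jagged class, showed the largest rise of the 10 genes. Jag1 was between 57.4 and 189.8 normalized cpm in the tumors, with a median of 78.3, and at 24.5, 25.7 and 24.3 normalized cpm in glands 1, 2 and 3. The lowest tumor was thus well above the highest gland, and the glands lay close together. The log2FC was 1.77 ± 0.33 (SE, limma adjusted p = 0.00101), a 3.41-fold rise. Tumors 7 and 9 stood above the rest with 178 and 189.8 normalized cpm, followed by tumor 5 with 95.04. Tumors 8 and 10, from the same mouse as tumor 9, were at 81.3 and 78.4 normalized cpm, so that the highest level was not shared by the tumors of that animal. Without tumor 9 the log2FC was 1.64, and without tumor 7 it was 1.65, both still significant.

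Dll1 (Entrez 13388; chromosome 17, 15367354 to 15376932), a ligand of the Delta class, was between 22.2 and 61.4 normalized cpm in the tumors, with a median of 33.4. The glands were at 19.7, 32.5 and 7.56 normalized cpm. In the tumors, 7 of 10 values were above all glands, and tumors 4 and 8 were the highest with 60.5 and 61.4 normalized cpm. The log2FC of 1.06 ± 0.35 (SE, limma adjusted p = 0.0354) was just past the threshold. It fell short of it with edgeR on the recovered reads (log2FC 0.94, adjusted p = 0.0795), and its size depended on glands 2 and 3 (0.52 without gland 3, adjusted p = 0.215, and 1.51 without gland 2, adjusted p = 0.00846). Leaving out tumor 4 (0.98), tumor 8 (0.98), tumor 10 (1.04, adjusted p = 0.0535) or gland 1 (1.16, adjusted p = 0.0782) also ended the significance of Dll1. So did scaling to pan-epithelial genes (0.66, limma adjusted p = 0.103) and leaving out the mouse of tumors 8, 9 and 10 (0.93, limma adjusted p = 0.104). With a pseudocount of 3 (0.97) and with DESeq2 (0.96), only the 2-fold limit was missed.

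Jag2 (Entrez 16450; chromosome 12, 112907803 to 112929812), the other Jagged ligand, was between 24.1 and 79.8 normalized cpm in the tumors, with a median of 45.8. In the glands, values of 43.9, 41.9 and 10.8 normalized cpm were found. The groups overlapped widely, and the log2FC of 0.64 ± 0.41 (SE, limma adjusted p = 0.274) was not significant. Without gland 3 it was 0.01.

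Of the receptors, Notch4 (Entrez 18132; chromosome 17, 34564286 to 34588543) was the only member that was significantly lower. Notch4 was between 4.80 and 14.7 normalized cpm in the tumors, with a median of 9.40, from 44 to 175 reads. The glands were at 32.6, 32.9 and 7.80 normalized cpm. Glands 1 and 2 were thus above every tumor, while gland 3 lay within the range of the tumors and only 2 tumors were below it. The log2FC was -1.08 ± 0.36 (SE, limma adjusted p = 0.0362). Without gland 3 it was -1.72 (adjusted p = 0.000409), and leaving out gland 1 (-0.76, adjusted p = 0.243) or gland 2 (-0.75, adjusted p = 0.234) ended the significance. So did leaving out tumor 1 (-0.99), tumor 4 (adjusted p = 0.0515), tumor 5 (adjusted p = 0.0534) or tumor 10 (adjusted p = 0.0542).

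The other receptors did not pass the test. Notch1 (Entrez 18128; chromosome 2, 26457902 to 26503822) was between 57.7 and 117 normalized cpm in the tumors, with a median of 84.6, and at 74.9, 82.9 and 30.7 normalized cpm in the glands. Its log2FC was 0.53 ± 0.28 (SE, limma adjusted p = 0.190) and 0.08 without gland 3. Notch2 (Entrez 18129; chromosome 3, 98013538 to 98150367) was between 30.8 and 68.8 normalized cpm in the tumors, with a median of 41.4. In the glands, values of 60.4, 63.0 and 38.5 normalized cpm were found. The log2FC of Notch2 was -0.30 ± 0.23 (SE, limma adjusted p = 0.358), and -0.52 without gland 3 and -0.18 without gland 2. Tumor 7 alone exceeded all glands for Notch2. Notch3 (Entrez 18131; chromosome 17, 32120820 to 32166896), which is also known from mural cells of blood vessels, was between 33.6 and 86.4 normalized cpm in the tumors, with a median of 63.2. The glands were at 106, 112 and 27.6 normalized cpm, so that all 10 tumors lay between gland 3 and the other glands. The log2FC of Notch3 was -0.22 ± 0.39 (SE, limma adjusted p = 0.716), and it changed sign with the gland left out, from -0.87 without gland 3 to 0.08 and 0.12 without gland 1 and gland 2. Both Notch2 and Notch3 also changed sign with plain cpm, to 0.02 and 0.10, a scaling that shifted the median of all genes tested to 0.33.

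The targets Hes1 and Hey1 rose. Hes1 (Entrez 15205; chromosome 16, 30065357 to 30067796), a repressor of the bHLH class, was between 54.0 and 109 normalized cpm in the tumors, with a median of 79.0. In the glands, values of 24.0, 25.2 and 24.0 normalized cpm were found, and even the lowest tumor was above all of them. The log2FC was 1.63 ± 0.20 (SE, limma adjusted p = 2.95e-05), a 3.10-fold rise with the smallest standard error of the 10 genes. Gland 3 did not stand apart for Hes1 or Jag1, whose exons have the lowest GC content of the 10 genes (50.7% and 48.8%).

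Hey1 (Entrez 15213; chromosome 3, 8663359 to 8667038), a related repressor, was between 7.83 and 59.4 normalized cpm in the tumors, with a median of 19.3. The glands were at 5.65, 6.35 and 8.53 normalized cpm. In the tumors, 9 of 10 values were above all glands, and tumor 6 lay just below gland 3. The log2FC was 1.56 ± 0.42 (SE, limma adjusted p = 0.0113), and without gland 1 it was 1.45 and not significant (adjusted p = 0.0630). Scaling to pan-epithelial genes also ended the significance of Hey1 (1.16, adjusted p = 0.102). Tumors 9, 10, 7 and 8 held the highest values, with 59.4, 33.1, 32.1 and 29.5 normalized cpm, so that for Hey1 all 3 tumors of the shared mouse were high. Tumor 9 was the highest tumor for Jag1, Hes1 and Hey1. This library also had the lowest GC index (-0.86) and the largest share of the ribosomal RNA precursor Rn45s (27.4% of reads), whose part in these values was not tested. Without tumor 9, the log2FCs of Hes1 and Hey1 were 1.58 and 1.41, and both remained significant.

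Heyl (Entrez 56198; chromosome 4, 123233556 to 123249870), the third repressor of this group and a gene also known from vascular smooth muscle, did not pass the test. It was between 0.600 and 25.7 normalized cpm in the tumors, with a median of 4.5 and 10 to 245 reads, and at 11.8, 14.4 and 4.998 normalized cpm in the glands. Tumor 7 alone was above all glands, and 5 tumors were below all of them. The log2FC of -0.91 ± 0.57 (SE, limma adjusted p = 0.269) was not significant, and it was -1.16 without tumor 7 (adjusted p = 0.0575) and -1.32 without gland 3.

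**Figure D2:**
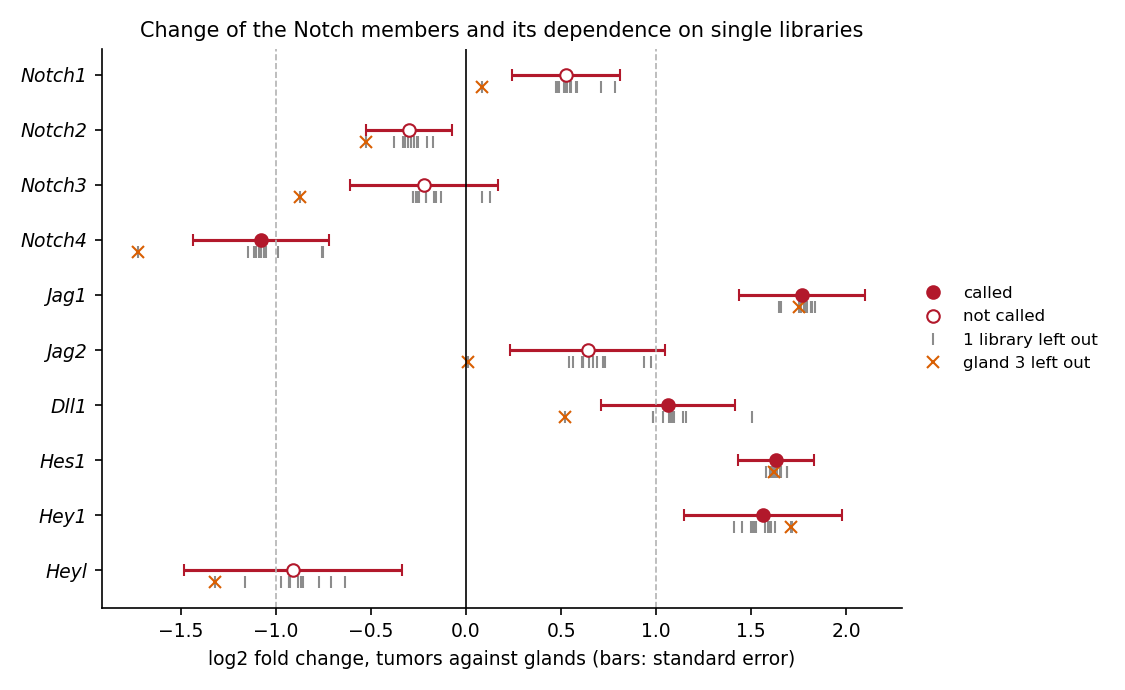
Log2FC of tumors against glands with its standard error for the 10 genes, where filled circles are significantly deregulated genes and grey ticks are fits that each left out 1 library. The cross shows the fit without gland 3, which moved Notch4 to -1.72 and Dll1 to 0.52 and left Jag1 and Hes1 near 1.75 and 1.62.

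Tumors of the same mouse were not alike in all members. In the mouse with 3 tumors, the highest value exceeded the lowest by 2.42-fold for Jag1, 2.01-fold for Hey1 and 2.04-fold for Notch3, and by 1.39-fold for Hes1. Tumors 2 and 3 differed by 1.03-fold for Jag1 and tumors 5 and 6 by 1.66-fold. Over all genes tested, the correlation of tumors of the same mouse estimated by limma was 0.0477, and the same 5 members were significant with the mouse as a random effect. With the reads of a mouse summed, Jag1, Hes1 and Hey1 remained significant (log2FCs 1.77, 1.61 and 1.51), while Dll1 (1.09, adjusted p = 0.0710) and Notch4 (-1.11, adjusted p = 0.0963) did not.

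Levels per kilobase of exon place the genes on a common scale. In the tumors, Hes1 was the highest of the 10 genes in 10 of 10 libraries, with 39.1 ± 8.63 normalized cpm per kilobase (SD, n = 10), followed by Jag1 with 16.3 ± 8.28. Dll1 (9.13), Notch3 (7.70), Hey1 (7.65), Jag2 (6.64) and Notch1 (6.02) followed with gaps between neighbors that were smaller than the SD. Notch2 (4.06) was below Notch1 in all 10 tumors, and Heyl (1.23) and Notch4 (1.18) were the lowest. In the glands, Hes1 (11.99 ± 0.35 normalized cpm per kilobase, SD, n = 3) and Notch3 (10.1 ± 5.85) led, and Jag1 (4.26 ± 0.134) had rank 7. Hes1 was the highest in 1 of the 3 glands, and Notch3 exceeded it in glands 1 and 2 (13.1 against 11.8 and 13.9 against 12.4). No neighboring pair of this order in the glands differed by more than the larger SD of the pair.

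Shares within a family do not depend on the scaling of a library. Each gene was set against the sum of its family per kilobase, and the log2 ratios were tested by two-sided exact permutation of the 13 libraries (10 shares tested). Notch1 made up 27.1 to 37.0% of the receptor transcripts in the tumors and 18.8, 19.6 and 21.4% in glands 1, 2 and 3, with all tumors above all glands. Its log2 share was 0.68 higher in the tumors (exact permutation p = 0.0035, the lowest value possible with 10 and 3 libraries, adjusted p = 0.0175). Notch4 made up 4.49 to 8.51% in the tumors and 14.4, 13.8 and 9.58% in the glands, with all tumors below all glands. Its log2 share fell by 0.99 (exact permutation p = 0.0035, adjusted p = 0.0175). Gland 3 was on the side of the other glands for both shares, although its levels of Notch1 and Notch4 were low.

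The shares of Notch2 and Notch3 did not differ detectably (adjusted p = 0.554 and 0.654, exact permutation test), and Notch3 was the most abundant receptor per kilobase on average, with 40.0 ± 4.87% in the tumors (SD, n = 10), beside 42.5 ± 7.59% in the glands (SD, n = 3). Among the ligands, Jag1 made up 35.4 to 72.8% in the tumors and 27.7, 24.3 and 55.4% in the glands, and gland 3 lay within the range of the tumors. The log2 share of Jag1 was 0.53 higher in the tumors (adjusted p = 0.133, exact permutation test), and 0.89 higher without gland 3 (adjusted p = 0.0379, exact permutation test). Among the targets, the share of Heyl was 0.234 to 9.35% in the tumors and 14.6, 16.4 and 6.36% in the glands, a fall of 2.58 on the log2 scale (exact permutation p = 0.0105, adjusted p = 0.0350). Tumor 7 was the only tumor whose Heyl share exceeded that of gland 3. The Heyl share missed the threshold without tumor 3, 5, 8 or 10. With 1 value per mouse or with gland 1 or 2 left out, no share passed an adjusted p of 0.05, and the smallest p that those designs allow is 0.0119 and 0.0152. The adjusted p of Notch1 and Notch4 was then 0.0595 per mouse and 0.0758 without either gland (exact permutation test).

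**Figure D3:**
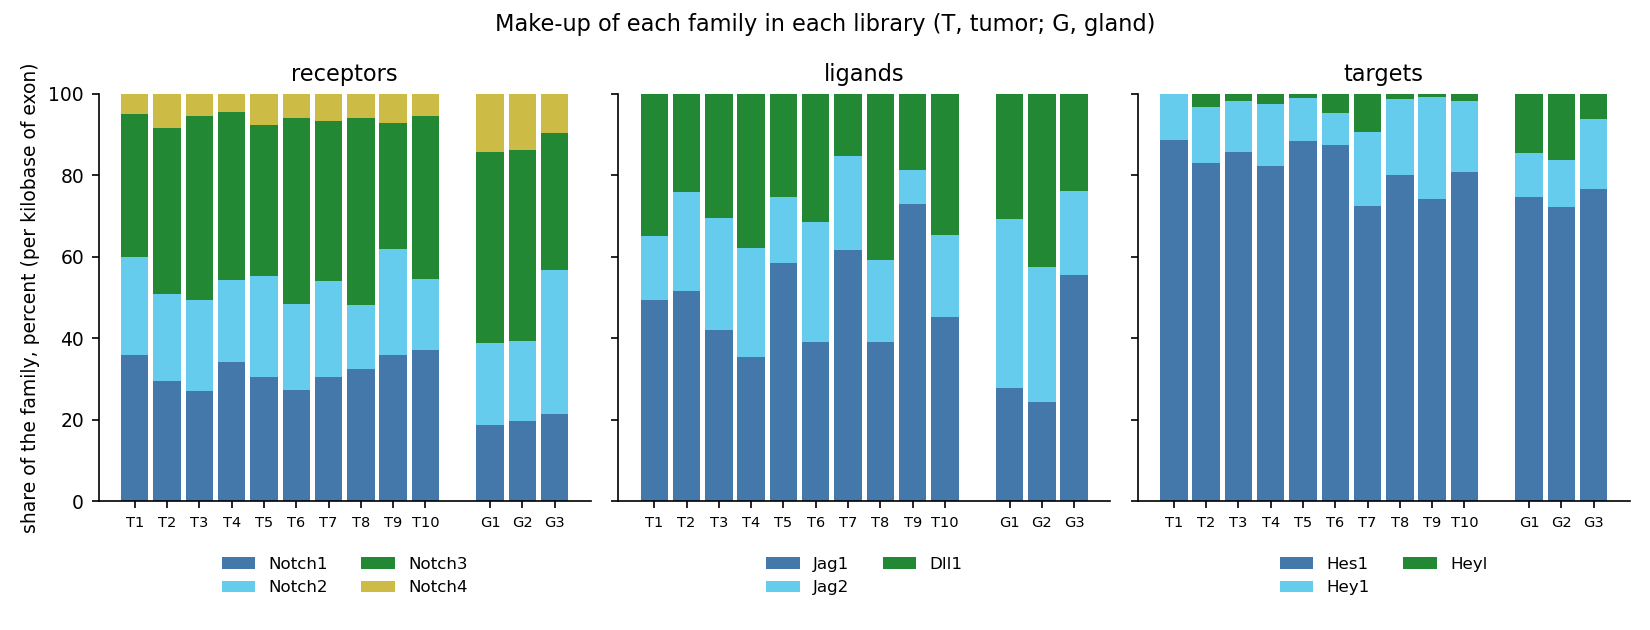
Share of each gene in the sum of its family per kilobase of exon, in percent, for the 4 receptors, the 3 ligands and the 3 targets in each tumor (T) and gland (G). Notch1 takes 27.1 to 37.0% of the receptors in the tumors and at most 21.4% in the glands, and the Heyl share is at most 9.35% in the tumors.

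Endothelial genes were lower in the tumors as well. Of the 10 endothelial markers, 8 were significantly lower in the tumors when the filter was lifted, with Flt1 and Emcn as the exceptions. Their summed level was 64.5 to 175 normalized cpm in the tumors and 645, 663 and 249.8 normalized cpm in glands 1, 2 and 3, so that gland 3 was also the lowest gland here. Of the 7 mural markers, Abcc9 was significantly lower, Rgs5 passed the adjusted p (0.0274, limma) with a log2FC of -0.90 that missed the 2-fold limit, and 5 had a negative log2FC. The mural sums overlapped between tumors (113 to 240.1 normalized cpm) and glands (183 to 250.1). With the filter lifted, the 8 adipocyte markers were all significantly lower, with sums of 36.6 to 297 normalized cpm in the tumors and 2969 to 9466 in the glands. Relative to the endothelial sum, Notch4 was above the glands in all 10 tumors. It amounted to 6.42 to 10.8% of that sum in the tumors and to 5.06, 4.96 and 3.12% in the glands. The corresponding values of Dll4, the endothelial Delta ligand, were 3.16 to 6.61% in the tumors and 2.23, 2.27 and 3.17% in the glands. The values of Heyl were 0.930 to 14.7% in the tumors and 1.83, 2.17 and 2.00% in the glands, with 9 tumors above all glands and tumor 1 below them. Those of Egfl7 overlapped, with 17.1 to 44.6% in the tumors and 10.9, 11.1 and 37.7% in the glands. These ratios were chosen after the values had been seen and were not tested, and the part of the endothelial genes in the changes of Notch4, Dll4 and Heyl was not tested.

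**Figure D4:**
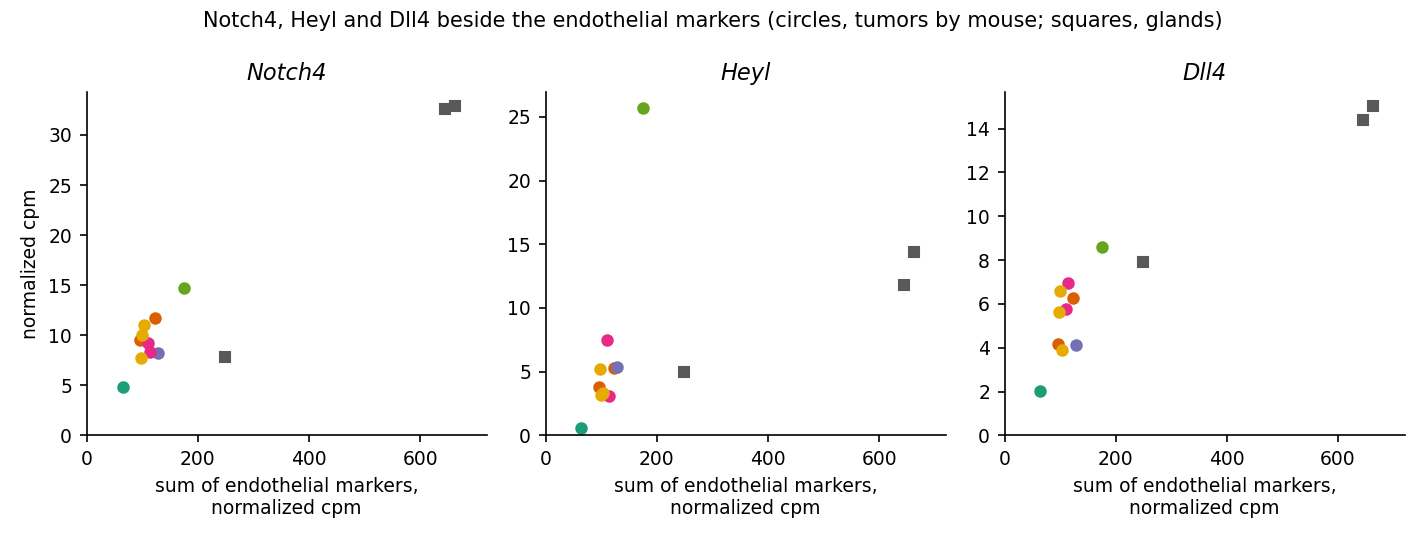
Normalized cpm of Notch4, Heyl and Dll4 against the summed normalized cpm of 10 endothelial markers in each library, with tumors as circles in the colors of their mice and glands as squares. All tumors lie at or below 175 on the horizontal axis and the glands at 249.8 or above, and tumor 7 is the highest tumor on both axes in each panel.

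Tumor 7 stood out in several members at once. It had the highest tumor value for Notch1, Notch2, Notch4, Jag2 and Heyl and the second highest for Jag1. This library was also the highest of the tumors for the summed endothelial markers (175 normalized cpm), for the basal markers (4334, against 946 to 2481 in the other tumors) and for the squamous markers (2241, against 253 to 1556). Of the 8 basal markers, with the filter lifted for Cnn1, Krt5, Krt14, Krt17 and Trp63 were significantly higher in the tumors and the contractile and receptor genes Acta2, Mylk, Cnn1 and Oxtr significantly lower, so that the basal sum of tumor 7 was made up mostly of keratins. The part of these markers in the values of tumor 7 was not tested. Of the 8 squamous markers listed, 7 were significantly higher in the tumors with the filter lifted, with sums of 253 to 2241 normalized cpm against 6.55 to 20.2 in the glands, and 6 of the 8 genes were at or below 3 reads in all glands.

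Of 49 other genes of the pathway, 44 were listed, 39 passed the filter and 9 were significantly deregulated, 2 higher and 7 lower. This is 23.1% of the genes tested, beside 17.2% of all genes tested. Their median log2FC was -0.16. Among the other ligands, Dll4 and Egfl7 fell and Dlk1 rose. Dll4 (Entrez 54485) averaged 5.402 ± 1.88 normalized cpm in the tumors (SD, n = 10), beside 12.4 ± 3.93 in the glands (SD, n = 3), a log2FC of -1.09 (limma adjusted p = 0.0142), with 9 of 10 tumors below all glands. Egfl7 (Entrez 353156) fell from 79.4 ± 12.9 (SD, n = 3) to 27.0 ± 6.28 (SD, n = 10) normalized cpm (log2FC -1.54, limma adjusted p = 9.82e-05). Unlike Notch4 and Dll4, Egfl7 was highest in gland 3 (94.1 normalized cpm). Dlk1 (Entrez 13386), a noncanonical ligand and preadipocyte factor, rose from 1.79 ± 1.03 (SD, n = 3) to 8.60 ± 4.75 (SD, n = 10) normalized cpm, a log2FC of 1.70 (limma adjusted p = 0.00939), with all 10 tumors above all glands. Dlk1 passed the filter only through the tumors, 7 of which were above 5 normalized cpm while no gland was. It was highest in tumor 4 (16.9 normalized cpm) and tumor 10 (14.1), the tumors with the highest summed skeletal muscle markers (1900.3 and 323 normalized cpm, at most 11.6 in the other tumors), whose part in the result was not tested.

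Of the genes that process and modify the receptors, the Fringe glycosyltransferase gene Mfng (Entrez 17305) showed the largest change. Its tumor values ran from 4.73 to 7.87 normalized cpm, and those of the glands were 37.9, 28.0 and 53.9, a log2FC of -2.54 ± 0.19 (SE, limma adjusted p = 3.55e-07). Lfng, a related Fringe gene, had an adjusted p of 0.0229 (limma) with a log2FC of -0.85 that missed the 2-fold limit. The lymphocyte markers, 7 of 8 of which were significantly lower with the filter lifted, summed to 8.94 to 96.3 normalized cpm in the tumors and to 469.9, 21.6 and 363 normalized cpm in glands 1, 2 and 3. Gland 2 was the lowest gland for these markers, for Lfng (24.4 normalized cpm, against 64.4 and 60.6) and for Mfng, and the part of the lymphocyte markers in these results was not tested. In the gamma-secretase complex, Psenen, a subunit required for its activity, rose (log2FC 1.07, limma adjusted p = 0.00194) and the subunit gene Psen2 fell (-1.07, limma adjusted p = 0.000115). Tumor values of Psen2 ran from 10.2 to 14.9 normalized cpm, below the 32.2, 21.6 and 26.2 of the glands. The shedding proteases Adam10 and Adam17 had log2FCs of -0.03 and 0.22 and did not pass the test.

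In the nuclear complex, Rbpj (Entrez 19664), which encodes the DNA-binding partner of the Notch intracellular domain, averaged 39.2 ± 5.57 normalized cpm in the tumors (SD, n = 10), beside 26.3 ± 2.34 in the glands (SD, n = 3). All 10 tumors were above all glands, and the log2FC of 0.55 (limma adjusted p = 0.0170) was below the 2-fold limit. The coactivator gene Maml2 fell (log2FC -1.03, limma adjusted p = 0.00147), with all tumors below all glands, while Maml1 (-0.39) and Maml3 (0.68) did not pass the test. Of the ubiquitin ligase genes, Dtx3l fell from 100.96 ± 32.2 (SD, n = 3) to 34.9 ± 7.59 (SD, n = 10) normalized cpm (log2FC -1.49, limma adjusted p = 0.000198). The Deltex gene Dtx1, counted among the targets, fell as well (-1.20, limma adjusted p = 0.0262), with gland 1 at 30.0 and glands 2 and 3 at 6.51 and 8.53 normalized cpm. The target Nrarp had a log2FC of 0.73 (limma adjusted p = 0.161), with its highest value in tumor 7 (70.1 normalized cpm). Hey2, a relative of Hey1 that the filter left out, was at 0.780 to 10.5 normalized cpm in the tumors and at 1.11, 0 and 1.10 in the glands, and 8 of 10 tumors were above all glands. With the filter lifted, the limma adjusted p of Hey2 was 0.0262.

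**Figure D5:**
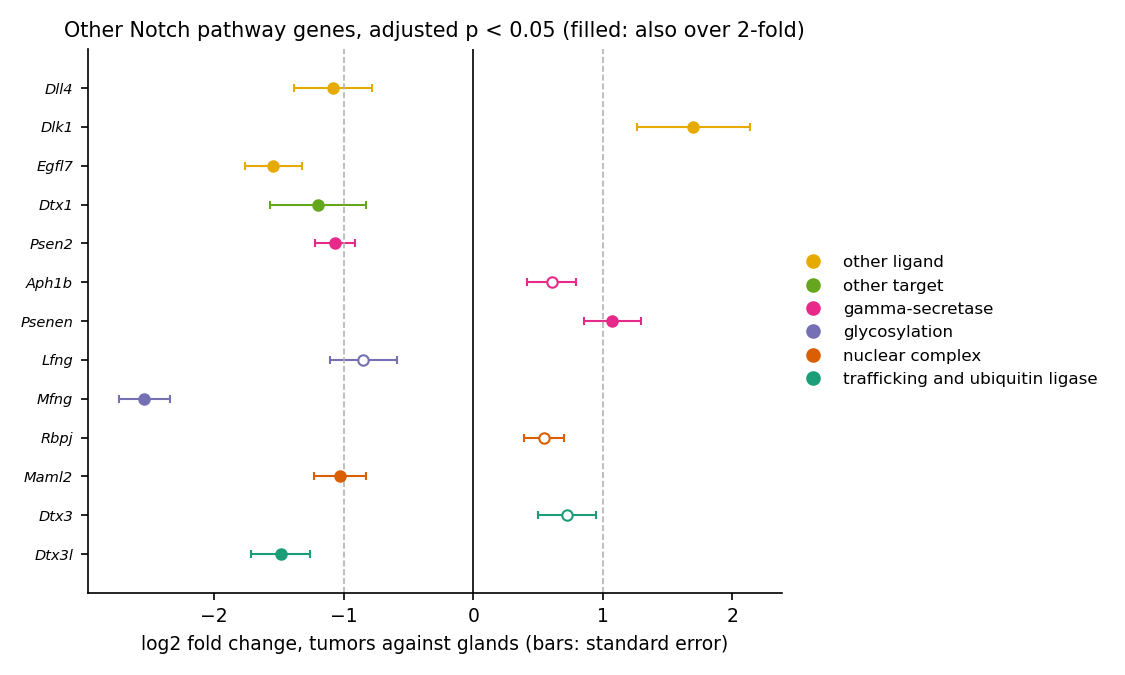
Log2FC of tumors against glands with its standard error for the 13 of 39 other pathway genes tested whose adjusted p was below 0.05 (limma), colored by role, with filled circles for the 9 that also changed by more than 2-fold. Mfng is farthest to the left at -2.54 and Dlk1 farthest to the right at 1.70.

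The genes most like each significant member were taken from all genes tested by Pearson's r of log2(normalized cpm + 1) over the 10 tumors. Some of these tumors share a mouse, and the coefficients are a description. For Jag1, the most similar genes included Ppfibp1 (r = 0.965) and Nectin3 (0.957). For Hes1 they were Aga (0.958), Chchd7 (0.936) and Bbox1 (0.930), and for Hey1 Slco1a5 (0.952), Hmgn3 (0.944) and Adgrg2 (0.932). For Notch4 they were C1qtnf6 (0.961), Mark1 (0.922) and Slc43a3 (0.922), and for Dll1 Fcgrt (0.943), Lifr (0.941) and Clcn2 (0.915). No other member was among these genes.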

How the data were processed

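RNA from flash-frozen tissue of 10 tumors and 3 glands was sequenced as paired ends. The authors aligned to mm10 with Rsubread, used featureCounts for gene-level counting and edgeR for normalization. The strand setting is not given in the sources used here, so reads of Notch1, Notch3 and Dll1 could not be told apart from those of overlapping genes on the opposite strand. Notch2 overlaps a gene on its own strand. The deposited signal values are normalized cpm, that is, reads scaled to a normalized library size by the authors. All libraries had 100% of their values at whole reads (tolerance 0.1 read), and these reads were recovered.

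The planned design was used. Genes above 5 normalized cpm in at least 7 of 13 libraries (11795, with 3418 left out) were fitted with limma (version 3.58.1, R 4.3.3) on log2(normalized cpm + 1), with condition as the only term, a variance trend and Benjamini-Hochberg adjustment over all genes tested. Family shares, with 0.25 normalized cpm added, were compared by an exact permutation test over 286 arrangements of the libraries. Exon lengths and GC content came from GENCODE M21, positions and promoters from RefSeq GRCm38.p6. Members, gene lists and tests were chosen with earlier results of these data known. The text names all 10 members, the other pathway genes that were significant, and the 3 genes most like each of the 5 significant members, of which 1 is not reported here. Further genes are named for their role, after their values were seen. Alternatives included edgeR 4.0.16 and DESeq2 1.42.0 on the recovered reads (2074 and 2167 significant genes, against 2029), other pseudocounts, filters and scalings, sums per mouse, a mouse random effect and single libraries left out. The scripts were tested on simulated data. Libraries held 6176269 to 23889042 reads, and floors of 3 reads cover counting error only, not the spread between samples. The labels name 2 sequencing sites without saying which library came from which, so that no batch could be assigned.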

Additional observations from a re-analysis of the deposited data

Results flagged for a closer look

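Among the 10 tumors, the highest value of Hey1 and the highest value of Heyl were separated from the other tumors by more than Dixon's 95% limit. The 10 genes were each tested at both ends of their range (20 ends), and chance flags about 1 in 20 groups. Hey1 was at 59.4 normalized cpm in tumor 9, with the next tumor at 33.1. Heyl was at 25.7 normalized cpm in tumor 7, with the next tumor at 7.46.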

How the results depend on the processing

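Over 27 alternatives, the 5 significant members kept their direction in each, and 105 of their values kept significance while 30 lost it. Of the values of the other members, 131 kept direction and side of the threshold and 4 changed sign, namely Notch2 (0.018) and Notch3 (0.10) with plain cpm and Notch3 without gland 1 or 2 (without single libraries -0.87 to 0.12). Beside 5 significant members, 3 were found with a pseudocount of 3, with scaling to pan-epithelial genes, with tumors of a mouse summed and without the mouse of tumors 8, 9 and 10, and 2 to 5 without single libraries. Higher members (4) numbered 2 with pan-epithelial scaling and 2 to 4 without single libraries. Notch4, the lower member, was no longer counted (0) with a pseudocount of 3 (-0.97) and with the GC index as a covariate (-0.97, added after seeing the data), where only the 2-fold limit was missed, nor with plain cpm (-0.78), summed tumors (-1.11) and without that mouse (-1.09), and 0 to 1 were counted without single libraries. Of all genes, 2029 were significant (1204 higher, 825 lower), against 3141 with no filter (1538 lower). The split was 1864 higher and 495 lower with plain cpm and 732 and 1833 with pan-epithelial scaling, which shifted the median of all genes to 0.33 and -0.40. Without single libraries, 1636 to 2627 genes were significant, 977 to 1506 higher and 659 to 1121 lower. Other pathway genes (9, 2 higher and 7 lower) numbered 4 (1 and 3) with a pseudocount of 3. With no filter 4 were higher, with plain cpm 4 were higher and 3 lower, with pan-epithelial scaling 1 was higher, and without tumors 1, 5 and 9 and gland 3, also added later, 1 was higher. Without single libraries 4 to 10 were significant, 1 to 2 higher and 3 to 8 lower. Of the family shares, 3 passed, against 0 with the mean per mouse and 0 to 4 without single libraries. Log2 shares changed sign for Notch3 and Dll1 without gland 2 and for Notch2 without gland 3 (ranges without single libraries -0.24 to 0.00086, -0.36 to 0.049 and -0.31 to 0.11). Replicate numbers are shared by tumors and glands of different mice, and the deviations of same-numbered samples correlated at -0.579, 0.0447 and -0.664, so they share only a number. With the replicate block, in which only tumors 1, 2 and 3 share a number with a gland, 0 members (0 higher, 0 lower), 544 genes (362 higher, 182 lower) and 1 other pathway gene (0 higher, 1 lower) were significant. The cause of these differences was not tested. Depth limits Heyl and Notch4 most, with as few as 10 and 44 reads in a tumor.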
